A study of Mus musculus with 12 samples.

Results

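Small nucleolar RNAs (snoRNAs) are short noncoding RNAs of the nucleolus that guide chemical modification of other RNAs by base pairing. The H/ACA class, with gene symbols that begin with Snora, guides the conversion of uridine to pseudouridine, and the C/D class, with symbols that begin with Snord, guides methylation of the 2′ hydroxyl of ribose, mostly in ribosomal RNA. Related molecules, the small Cajal body RNAs (scaRNAs, symbols that begin with Scarna), guides the same changes in the small nuclear RNAs of the spliceosome. Most mammalian snoRNAs lie in introns of a host gene and are released from the excised intron, and many of these hosts code for ribosomal proteins or are long noncoding RNAs of the Snhg family. Members were the genes on the arrays whose symbol begins with Snora, Snord or Scarna, 107 of 23185 genes, of which 34 were H/ACA, 65 were C/D and 8 were scaRNA genes.

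Levels were measured on 12 one-colour Affymetrix arrays of calf muscle (gastrocnemius) of 12-week-old diabetic mice of the strain BKS.Cg-Dock7m +/+ Leprdb/J, which lack a functional leptin receptor. All animals carried this genotype, and all were injected with adenovirus that carries short hairpin RNA (shRNA) and killed 1 week later. The groups were TSC22D4 shRNA (animals 25, 26 and 27), TSC22D4+LCN13 shRNA (animals 29, 30 and 32), LCN13 shRNA (animals 21, 22 and 23) and control shRNA (animals 18, 19 and 20). Total virus was equal in all groups: each single-target group had its target virus mixed with an equal part of control virus, the group with both targets had no control virus, and control animals had control virus alone. From the 7 treated animals of a group, 3 went onto arrays, and the labels call these representative. Tsc22d4 itself was not lower in the TSC22D4 group, at 6.82 ± 0.07 on the log2 scale in TSC22D4 muscle, 6.81 ± 0.17 in TSC22D4+LCN13 muscle, 6.81 ± 0.19 in LCN13 muscle and 6.59 ± 0.19 in control muscle (SD, n = 3 each). Obp2a, the current symbol of Lcn13, lay below the array median on all arrays, at 4.90 to 4.97. The groups are therefore named by their labels. The 6 skeletal muscle fibre markers were all above the array median, and none passed the test in any comparison.

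All levels below are deposited log2 levels, and a difference of 1 on this scale is a doubling. A member counted as measured when its mean over the 12 arrays was above the array median of 5.45. By this rule 69 members were measured, 24 of 34 H/ACA genes, 39 of 65 C/D genes and 6 of 8 scaRNA genes. The members nearest to the limit were Snora41 (5.34), Snora78 (5.37) and Snord14a (5.37) below it and Snord22 (5.46), Snord34 (5.52) and Snord123 (5.53) above it. The other 38 members reached at most 5.59 on any array. Of the imprinted snoRNA clusters, Snord64 alone was among the members, and it was not measured. In total RNA from tissue, fewer cells of a type and less RNA per cell cannot be told apart. A probe set inside an intron also reads unspliced host RNA, so that mature snoRNA and host pre-mRNA cannot be told apart either. For near-identical copies such as Snora73a and Snora73b, it is not known here whether their probe sets read one copy only.

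The highest mean levels were those of the C/D genes Snord100 (12.50), Snord82 (12.05) and Snord57 (11.89), the H/ACA genes Snora17 (10.47) and Snora52 (10.44), and the scaRNA genes Scarna6 (10.32) and Scarna13 (10.17). Probe sets differ in sensitivity, so these values give no order of abundance between genes. The measured members varied more between animals of 1 group than other genes did. Their median within-group SD was 0.21, with 0.246 for H/ACA, 0.188 for C/D and 0.265 for scaRNA genes, against 0.107 for all 11906 genes above the array median. A difference of a given size was therefore harder to call for these genes than for most.

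Noncoding host genes are shown first, by the letters around their transcription start, because 11 of the measured members are released from these 5 transcripts, among them Snora73a, Snora73b, Snora17, Snora16a, Scarna13 and Snord65, described below. These hosts were chosen after the values were seen, and Snhg4, the host of Snora74a, is not shown. Each line holds 40 bases before and 20 bases after the RefSeq start in GRCm38.p6, on the strand of the gene. Capitals mark a C followed by at least 4 further C or T bases, the letters of a terminal oligopyrimidine tract, with the first base of the run within 10 bases of the start.
Snhg3 (host of Snora73a and Snora73b, chr4:132353667-132353726, minus strand): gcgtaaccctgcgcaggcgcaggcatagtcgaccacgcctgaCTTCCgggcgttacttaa
Snhg7 (host of Snora17 and Snora43, chr2:26640225-26640284, minus strand): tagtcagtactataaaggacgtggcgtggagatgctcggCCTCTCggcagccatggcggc
Snhg12 (host of Snora16a, Snora44 and Snord99, chr4:132308638-132308697, plus strand): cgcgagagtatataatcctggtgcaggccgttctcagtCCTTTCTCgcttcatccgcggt
Snhg10 (host of Scarna13, chr12:105032260-105032319, minus strand): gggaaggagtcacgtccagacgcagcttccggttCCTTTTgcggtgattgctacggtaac
2410006H16Rik (host of Snord65, Snord49a and Snord49b, chr11:62602837-62602896, plus strand): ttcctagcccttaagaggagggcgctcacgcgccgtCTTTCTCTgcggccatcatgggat
All 5 windows held such a run on the gene's strand, as did 29.0% of the 32851 RefSeq start windows searched in the same way. A match is a description of the letters and not of a site in use. Counted from the RefSeq start, the run began at base 3 in Snhg3, -1 in Snhg7, -2 in Snhg12, -6 in Snhg10 and -4 in 2410006H16Rik. No run began at the start itself, and that of Snhg10 ended before it. Transcripts that begin with such a run are known to be translated under the control of growth signals, and many snoRNA hosts belong to this kind. Whether these 5 transcripts begin with a run was not tested.

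**Figure D1:**
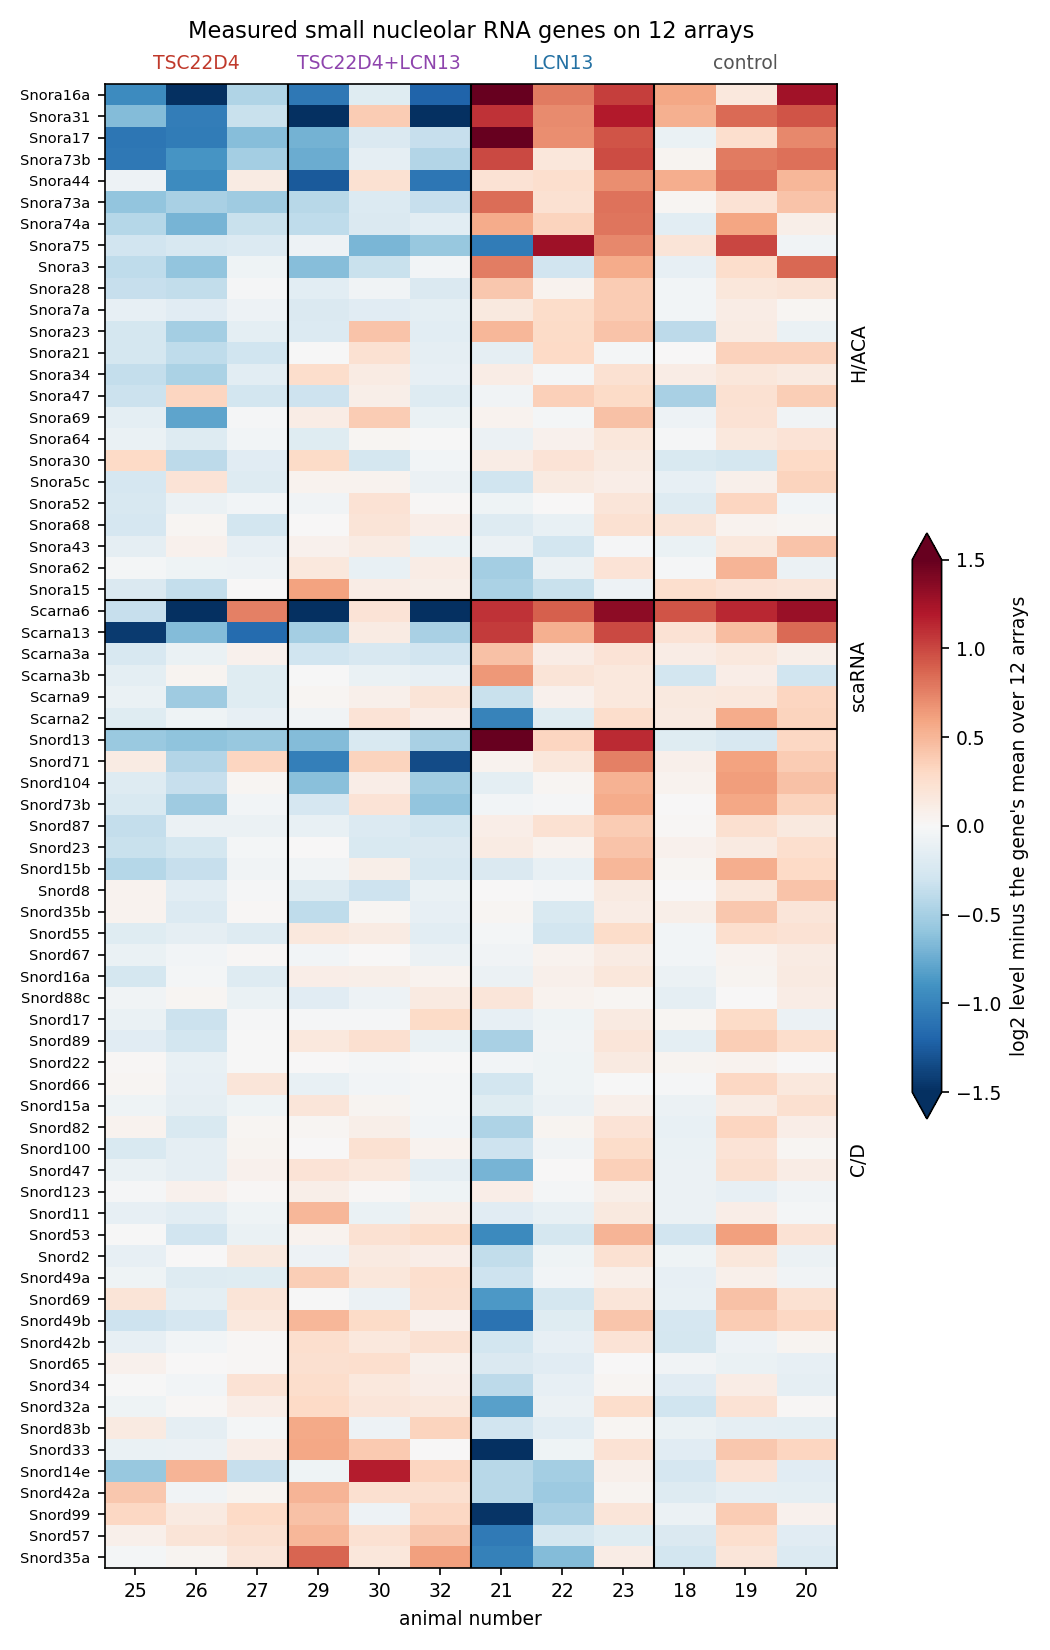
Level of each of the 69 measured members on each of the 12 arrays, as the log2 level minus the gene's own mean (colour scale from blue for lower to red for higher, capped at 1.5 either way), with genes ordered within each class by their average difference with TSC22D4 virus. The upper rows of the H/ACA and scaRNA blocks are mostly blue on the 6 arrays with TSC22D4 virus and mostly red on the other 6, and LCN13 animal 21 is blue for many C/D genes.

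The first comparison asked which snoRNA genes changed with TSC22D4 shRNA in mice that had no LCN13 virus. All 24 measured H/ACA genes had a lower mean in TSC22D4 muscle than in control muscle, with a median log2 difference of -0.38. C/D genes had a median of -0.15 with 28 of 39 below 0, and scaRNA genes one of -0.47 with 5 of 6 below 0, while over all genes the median was -0.0019 and 51.6% were below 0. By limma, 1 member passed an adjusted p of 0.05, in a comparison in which 0.336% of all genes and 0.63% of genes above the array median passed.

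That member was Scarna13, known in humans as U93, a scaRNA with a tandem pair of H/ACA domains. It stood at 8.73, 9.52 and 9.02 in TSC22D4 muscle and at 10.39, 10.64 and 11.03 in control muscle. Each TSC22D4 array lay below each control array, and Scarna13 fell by 1.59 (SE 0.25, limma adjusted p = 0.0365), which is 3.02-fold lower. The groups also did not overlap, with TSC22D4 lower, for 26 of the 69 measured members, against 9.15% of all genes and 11.3% of genes above the array median. They included 13 of 24 H/ACA, 8 of 39 C/D and 5 of 6 scaRNA genes. Among those that missed the threshold, Snora73a had a difference of -0.76 (limma adjusted p = 0.0993) and Snora21 one of -0.55 (0.164). Snora73b had a difference of -1.37 (limma adjusted p = 0.108), Snora17 one of -1.21 (0.116) and Snora34 one of -0.47 (0.135). The call of Scarna13 was lost in 8 of the 12 fits without 1 array, which between them left out animals of all 4 groups. The count was 2 without LCN13 animal 22 and 2 without TSC22D4+LCN13 animal 30, and with the 6 arrays of these groups alone 0 members passed.

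The second comparison asked the same in mice that had received LCN13 virus, TSC22D4+LCN13 against LCN13 muscle, on 6 other arrays. Here 10 of the 69 measured members passed, 9 lower and 1 higher, where 4.21% of all genes and 7.16% of genes above the array median passed. By direction, 2.9% of all genes passed as lower and 1.32% as higher, and 5.06% and 2.09% of genes above the array median. The lower members were the H/ACA genes Snora7a, Snora73a, Snora17, Snora16a and Snora74a, the scaRNA genes Scarna3a and Scarna13, and the C/D genes Snord13 and Snord87. The higher member was the C/D gene Snord65. H/ACA genes had a median difference of -0.36 with 18 of 24 below 0, scaRNA genes one of -0.47 with 4 of 6 below 0, and C/D genes one of 0.12 with 13 of 39 below 0. Over all genes 52% were below 0. Snord70, with a mean of 4.97 and so not measured, also passed, at 5.01 in TSC22D4+LCN13 muscle and 4.90 in LCN13 muscle (adjusted p = 0.0474 by limma). The count of 10 depended on single animals: it was 3 without LCN13 animal 21, 3 without TSC22D4+LCN13 animal 29, and 5 without animal 32 of the same group. With the 6 arrays of these groups alone it was 0. Snora7a, Snora73a and Scarna3a passed in all 12 fits without 1 array, and the other 7 calls were lost in 2 (Snora17) to 10 (Snora74a) of them.

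These comparisons share no array, and their values can be set side by side. Of the 24 measured H/ACA genes 18 were lower with TSC22D4 virus in both, or 75%, against 12 of 39 C/D genes (30.8%), 32% of all genes and 32.5% of genes above the array median. No H/ACA gene was higher in both, while 10 C/D genes were. Across genes the differences of the pair of comparisons had a Pearson r of 0.881 for the 24 H/ACA genes, 0.673 for the 39 C/D genes and 0.339 for all 23185 genes. These are descriptions across genes, which share the same arrays and are not independent replicates.

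**Figure D2:**
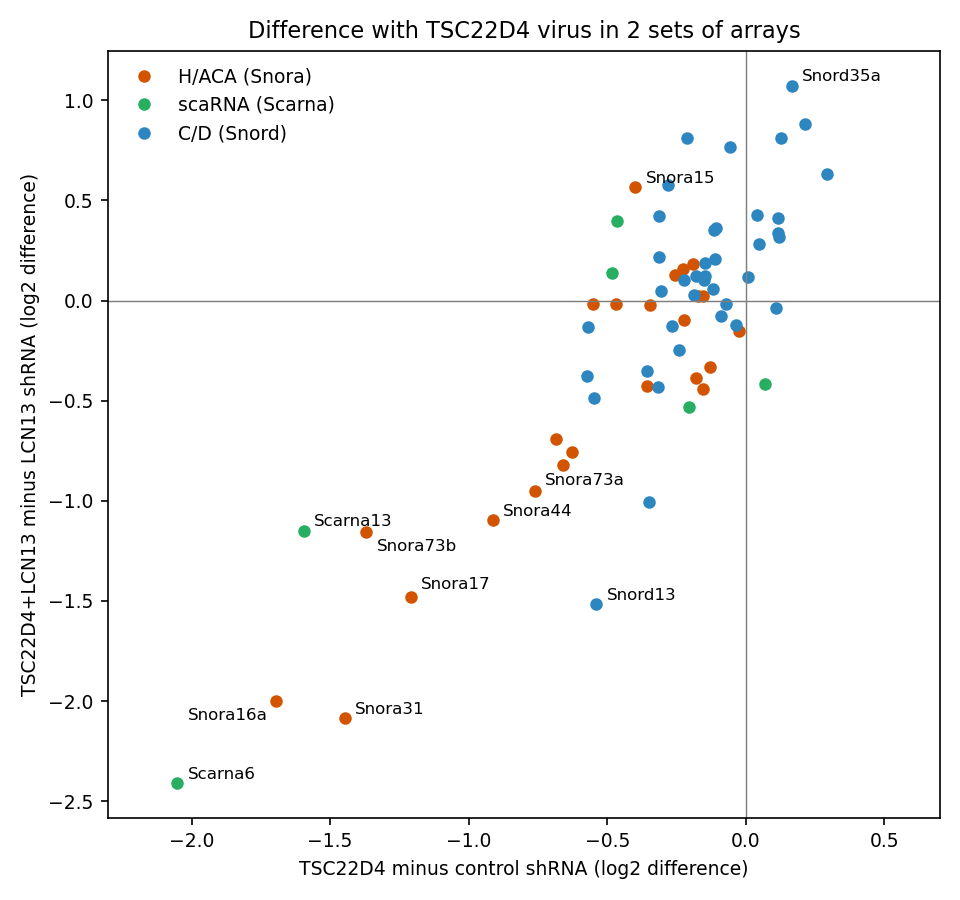
Log2 difference of each measured member in TSC22D4 against control muscle (x axis) and in TSC22D4+LCN13 against LCN13 muscle (y axis), coloured by class; the axes share no array. Scarna6, Snora16a, Snora31, Snora17, Snora73b and Scarna13 lie at the lower left, and C/D genes lie on both sides of 0 on the y axis.

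The 6 arrays with TSC22D4 virus were then compared with the 6 without it, as the average of the differences above, a comparison added after the data were seen. Of the 24 measured H/ACA genes 8 passed, all lower, and 23 were below 0 with a median of -0.28, where 52.1% of all genes were below 0. In all, 15 of 69 members passed, 13 lower and 2 higher, where 2.89% of all genes passed as lower and 1.52% as higher (5.2% and 2.47% of genes above the array median). The lower members were 8 H/ACA, 3 C/D and 2 scaRNA genes, and both higher members were C/D genes. All 6 TSC22D4-virus arrays lay below all 6 others for 12 members, 7 H/ACA, 2 C/D and 3 scaRNA genes, and above them for 1, against 1.51% and 0.798% of all genes and 2.37% and 1.07% of genes above the array median. C/D genes had a median of -0.01 with 20 of 39 below 0, and this median was -0.0576 without LCN13 animal 21 and 0.0463 without LCN13 animal 23. The count of 15 was 9 without control animal 20, 9 without TSC22D4 animal 25 and 9 without TSC22D4 animal 26.

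Among H/ACA genes, the Snora73 pair encodes copies of U17 (also E1), an H/ACA RNA known for its part in cleavage of the ribosomal RNA precursor and not for a modification. Snora73a stood at 5.48, 5.58 and 5.53 in TSC22D4 muscle, 5.64, 5.86 and 5.72 in TSC22D4+LCN13 muscle, 6.91, 6.30 and 6.88 in LCN13 muscle and 6.09, 6.28 and 6.49 in control muscle. All 6 arrays with TSC22D4 virus lay below the lowest of the others, and the average difference was -0.86 (SE 0.11, limma adjusted p = 0.00545), or 1.81-fold lower. Snora73b stood at 7.11, 7.30 and 7.68 in TSC22D4 muscle, 7.44, 8.05 and 7.75 in TSC22D4+LCN13 muscle, 9.18, 8.36 and 9.17 in LCN13 muscle and 8.23, 8.96 and 9.02 in control muscle. Its groups separated in the same way, with a larger difference of -1.26 (SE 0.20, limma adjusted p = 0.0112). Both lie within Snhg3, whose start is printed above.

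Snora17 and Snora16a, H/ACA guides from Snhg7 and Snhg12, moved further. Snora17 stood at 9.39, 9.42 and 9.83 in TSC22D4 muscle, 9.76, 10.25 and 10.12 in TSC22D4+LCN13 muscle, 12.00, 11.16 and 11.41 in LCN13 muscle and 10.36, 10.72 and 11.19 in control muscle. The gap between the nearest arrays was narrow, 10.25 against 10.36, while LCN13 animal 21 stood highest, and the average difference was -1.35 (SE 0.18, limma adjusted p = 0.00608). Snora16a stood at 7.66, 6.90 and 8.15 in TSC22D4 muscle, 7.52, 8.42 and 7.40 in TSC22D4+LCN13 muscle, 10.32, 9.38 and 9.63 in LCN13 muscle and 9.18, 8.76 and 9.86 in control muscle. It had the largest called difference, -1.85 (SE 0.29, limma adjusted p = 0.0111), and its groups did not overlap.

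Snora31 had a difference of almost the same size and far less even values. It stood at 7.503, 7.11 and 7.81 in TSC22D4 muscle, 6.09, 8.53 and 6.56 in TSC22D4+LCN13 muscle, 9.23, 8.86 and 9.34 in LCN13 muscle and 8.68, 9.00 and 9.09 in control muscle. Animal 30 of the group with both viruses, at 8.53, came close to control animal 18, at 8.68, and the SD of that group was 1.29, against 0.21 in control muscle. Snora31 fell by 1.77 (SE 0.36, limma adjusted p = 0.0287), and this call was lost in 8 of 12 fits without 1 array. The other lower H/ACA genes were Snora7a (-0.30, SE 0.04), Snora74a (-0.74, SE 0.13) and Snora28 (-0.39, SE 0.08), with limma adjusted p of 0.00723, 0.0172 and 0.0349. Of these calls that of Snora28 was lost in 8 of 12 fits without 1 array. Snora7a had the smallest of these differences and the smallest SE: it stood at 6.74 to 6.83 in TSC22D4, 6.69 to 6.77 in TSC22D4+LCN13, 7.05 to 7.29 in LCN13 and 6.86 to 7.02 in control muscle.

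**Figure D3:**
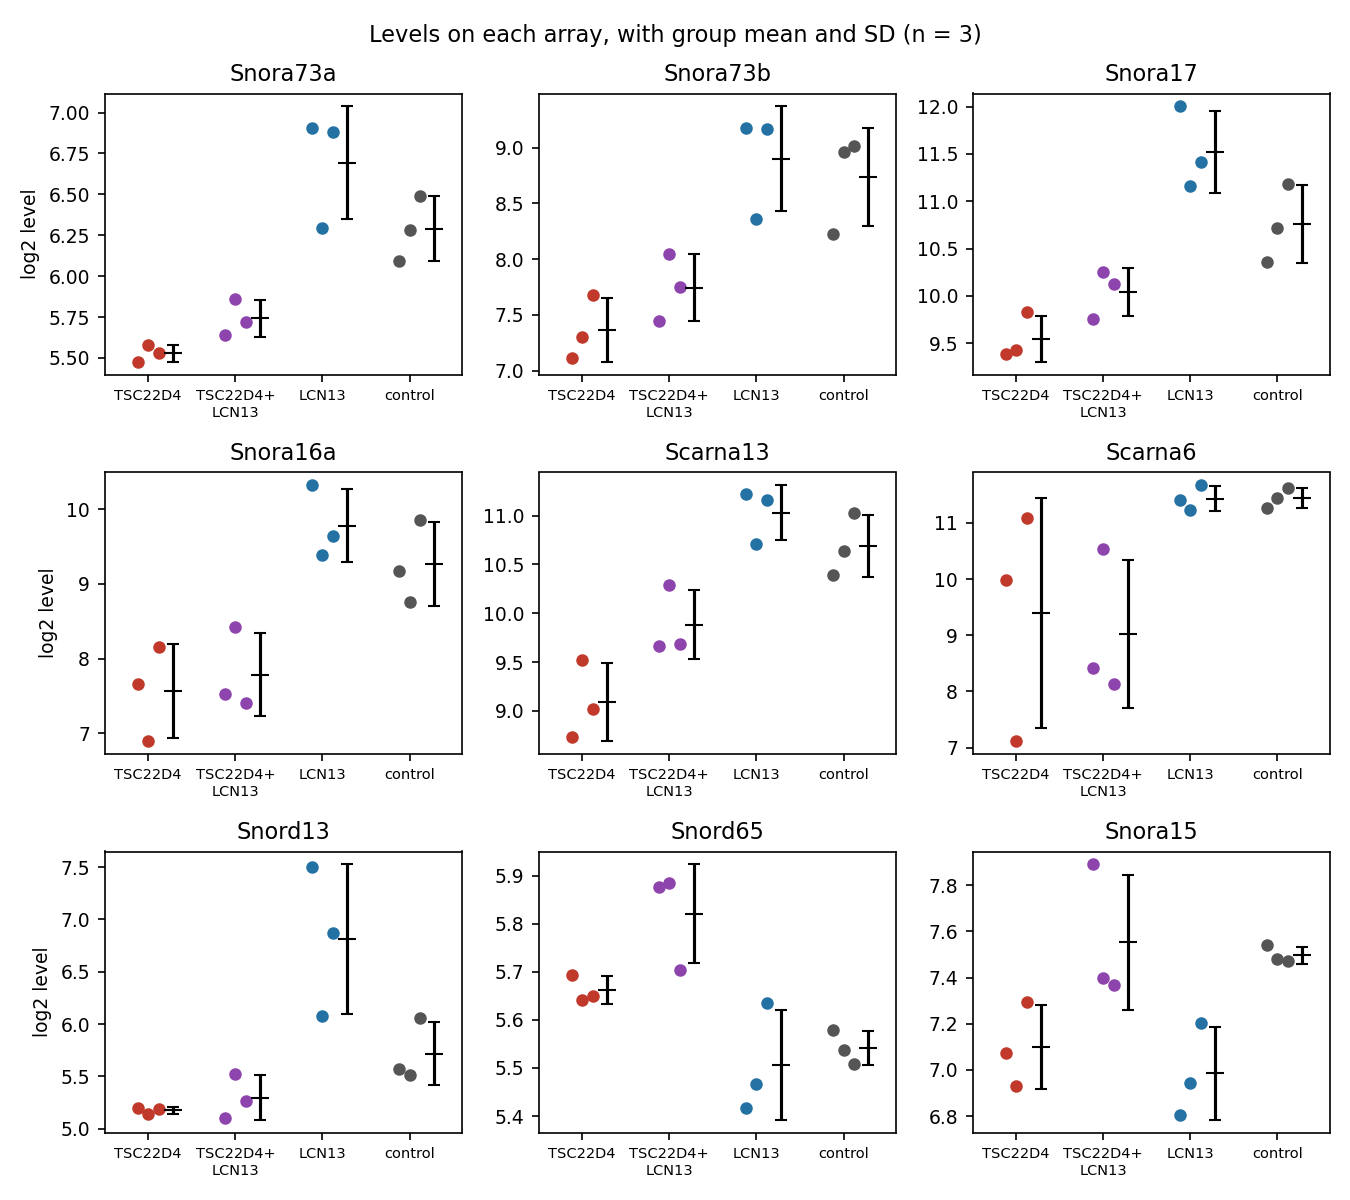
Levels of 9 members on each array (points, log2 level) by shRNA group, with the mean and SD of the 3 arrays of a group drawn beside them; the y axes differ and do not start at 0. Snora73a, Snora73b, Snora17, Snora16a, Scarna13 and Scarna6 are lower on all 6 arrays with TSC22D4 virus, Snord65 is higher on all 6, and Snora15 is low with either virus alone.

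Of the scaRNA genes, Scarna13 stood at 9.66, 10.29 and 9.69 in TSC22D4+LCN13 muscle and at 11.22, 10.71 and 11.16 in LCN13 muscle. Together with the values given above, all 6 arrays with TSC22D4 virus lay below all others, and the average difference was -1.37 (SE 0.18, limma adjusted p = 0.00566). Scarna3a was lower by a smaller amount, -0.37 (SE 0.06, limma adjusted p = 0.0142), with levels of 6.31 to 6.62 in TSC22D4, 6.25 to 6.32 in TSC22D4+LCN13, 6.67 to 7.00 in LCN13 and 6.64 to 6.71 in control muscle. It too did not overlap, although the nearest arrays, of TSC22D4 animal 27 and control animal 20, stood at 6.62 and 6.64.

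Scarna6, known in humans as U88, a scaRNA that joins a C/D and an H/ACA domain, had the widest range of all members over the 12 arrays, 4.55. It stood at 9.98, 7.12 and 11.08 in TSC22D4 muscle, 8.41, 10.53 and 8.13 in TSC22D4+LCN13 muscle, 11.41, 11.22 and 11.67 in LCN13 muscle and 11.26, 11.45 and 11.62 in control muscle. The 6 arrays without TSC22D4 virus lay close together, from 11.22 to 11.67, and above all 6 arrays with it, which were spread from 7.12 to 11.08. The average difference was -2.23 with an SE of 0.64, and it did not pass (limma adjusted p = 0.0834). Scarna3b, Scarna9 and Scarna2 had average differences of -0.17, -0.17 and -0.03, and each of the 3 differed in sign between the pair of comparisons.

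Among C/D genes, Snord13 (U13) is needed in human cells for an acetylated cytidine of the small ribosomal RNA, and it lies inside no other gene. It stood at 5.20, 5.14 and 5.19 in TSC22D4 muscle, 5.10, 5.52 and 5.27 in TSC22D4+LCN13 muscle, 7.498, 6.07 and 6.87 in LCN13 muscle and 5.57, 5.51 and 6.06 in control muscle. The LCN13 arrays were the 3 highest, the TSC22D4-virus arrays were below the array median apart from animal 30, and that animal overlapped with control. Snord13 fell by 1.03 on average (SE 0.21, limma adjusted p = 0.0287), and the call was lost in 7 of 12 fits without 1 array. Its means of 5.18 in TSC22D4 and 5.30 in TSC22D4+LCN13 muscle are below the array median, so that it counted as measured through the other groups and the difference is at best a lower bound. Snord87 (-0.37, SE 0.07, limma adjusted p = 0.0178) and Snord23 (-0.35, SE 0.08, limma adjusted p = 0.0413) were lower as well. Snord87 passed in all 12 fits without 1 array, and Snord23 was lost in 9 of them.

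The C/D genes that were higher were Snord65, from 2410006H16Rik, and Snord42a, from the ribosomal protein gene Rpl23a. Snord65 stood at 5.69, 5.64 and 5.65 in TSC22D4 muscle, 5.88, 5.88 and 5.70 in TSC22D4+LCN13 muscle, 5.42, 5.47 and 5.64 in LCN13 muscle and 5.58, 5.54 and 5.51 in control muscle. Its groups did not overlap, although TSC22D4 animal 26 and LCN13 animal 23 both stood at 5.64 after rounding, and the difference of 0.22 (SE 0.04, limma adjusted p = 0.026) was the smallest called. Snord42a stood at 6.17, 5.71 and 5.81 in TSC22D4 muscle, 6.28, 6 and 5.999 in TSC22D4+LCN13 muscle, 5.35, 5.22 and 5.81 in LCN13 muscle and 5.57, 5.63 and 5.62 in control muscle. Its groups overlapped, and its difference of 0.46 (SE 0.11, limma adjusted p = 0.0496) passed in 1 of 12 fits without 1 array. Snord65 passed in 4 of 12.

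Snord32a, Snord33, Snord34 and Snord35a lie in introns of the ribosomal protein gene Rpl13a, and the first, the second and the fourth of these are known from cultured mouse and hamster cells for a part in the response to excess fatty acid. Their average differences with TSC22D4 virus were 0.23, 0.30, 0.23 and 0.62, and none passed. Snord35a, the largest, stood at 7.85, 7.92 and 8.05 in TSC22D4 muscle, 8.75, 8.05 and 8.498 in TSC22D4+LCN13 muscle, 6.86, 7.23 and 7.99 in LCN13 muscle and 7.60, 8.06 and 7.67 in control muscle. TSC22D4+LCN13 animals 29 and 32 were the highest, and LCN13 animals 21 and 22 the lowest. The limma adjusted p was 0.0992 on average and 0.0559 in TSC22D4+LCN13 against LCN13 muscle.

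LCN13 animal 21 stood apart for the C/D class. It was the lowest of the 12 arrays for 21 of the 39 measured C/D genes, the most of any array. For the 24 H/ACA genes it was the highest for 6 and the lowest for 4, and control animal 20 was also the highest for 6. Snord33 was at 7.88 on its array and at 9.31 to 10.05 on the others, and Snord99 was at 8.81 and at 9.80 to 10.71. A class score, the mean deviation of the measured genes of a class from their 12-array means, put the C/D class at -0.32 on the array of animal 21, against -0.10 and 0.23 in animals 22 and 23. The C/D score ran from -0.13 to 0.01 in TSC22D4, from -0.01 to 0.10 in TSC22D4+LCN13 and from -0.10 to 0.21 in control muscle, so that all groups overlapped. The median C/D difference of TSC22D4+LCN13 against LCN13 muscle was 0.12 over all arrays, 0.0329 without animal 21 and 0.266 without LCN13 animal 23.

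The H/ACA score separated the arrays by TSC22D4 virus. It was -0.34, -0.45 and -0.20 in TSC22D4 muscle, -0.29, 0.0001 and -0.28 in TSC22D4+LCN13 muscle, 0.25, 0.21 and 0.45 in LCN13 muscle and 0.02, 0.31 and 0.33 in control muscle. The nearest arrays were those of TSC22D4+LCN13 animal 30 and control animal 18, 0.0001 against 0.0158. The median H/ACA difference kept its sign without any 1 array, at -0.497 to -0.32 in TSC22D4 against control muscle and at -0.445 to -0.268 in TSC22D4+LCN13 against LCN13 muscle. The score is a summary of genes described above and was given no test.

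TSC22D4+LCN13 muscle was also compared with control muscle, the same controls as in the first comparison. Here 2 of 69 measured members passed, Snord65 higher by 0.28 (SE 0.06, limma adjusted p = 0.0373) and Scarna3a lower, at -0.39 (SE 0.09, limma adjusted p = 0.0397), where 4.34% of all genes and 7.61% of genes above the array median passed. H/ACA genes had a median of -0.19 with 18 of 24 below 0, where 53.4% of all genes were below 0. Snora31, with a difference of -1.87, and Snora16a, with one of -1.48, did not pass (adjusted p = 0.0733 and 0.0776). The count was 0 without control animal 19, without control animal 20, without TSC22D4 animal 26 and without TSC22D4+LCN13 animal 29, 4 without LCN13 animal 21 and 5 without TSC22D4+LCN13 animal 30. It was 1 without each of control animal 18, LCN13 animal 23, TSC22D4 animals 25 and 27 and TSC22D4+LCN13 animal 32.

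LCN13 virus alone gave no call. In LCN13 against control muscle 0 of 69 measured members passed, where 0.85% of all genes and 1.6% of genes above the array median passed by limma. At an unadjusted p under 0.05 there were 11 of 69 members, against 21.4% of genes above the array median. Snora7a (0.24, adjusted p = 0.117), Snord13 (1.10, adjusted p = 0.145) and Scarna3b (0.50, adjusted p = 0.161) had the smallest p, and all of them were higher in LCN13 muscle. The count was 2 without LCN13 animal 22. In TSC22D4+LCN13 against TSC22D4 muscle 0 of 69 members and 0% of all genes passed by limma. The unadjusted p was under 0.05 for 10 of 69 members, against 14.5% of genes above the array median. Here 16 of 69 members were below 0, where 53% of all genes were, and the members' median was 0.15. LCN13 virus averaged over both backgrounds, added after the data were seen, gave 0 members by limma. In that average 0.617% of all genes and 1.18% of genes above the array median passed. The unadjusted p was under 0.05 for 11 of 69 members, against 22.1% of genes above the array median.

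Whether the difference with TSC22D4 virus depended on LCN13 virus was asked with the interaction, the TSC22D4+LCN13 minus LCN13 difference less the TSC22D4 minus control difference. By limma 0 members passed, where 0.125% of all genes and 0.244% of genes above the array median did. The unadjusted p was under 0.05 for 14 of 69 members, against 14.1% of genes above the array median. The smallest p belonged to the H/ACA gene Snora15, in an intron of the chaperonin gene Cct6a. It stood at 7.07, 6.93 and 7.29 in TSC22D4 muscle, 7.89, 7.40 and 7.37 in TSC22D4+LCN13 muscle, 6.81, 6.95 and 7.20 in LCN13 muscle and 7.54, 7.48 and 7.47 in control muscle. Each virus alone left all arrays below control, while the group with both viruses spread around control. The interaction was 0.97 (SE 0.21, limma adjusted p = 0.155). Over the 39 C/D genes the median interaction was 0.27, with 6 below 0, where 51.9% of all genes were below 0. This median was 0.147 without LCN13 animal 21 and 0.392 without LCN13 animal 23. Any difference among the 4 groups was found for 9 of 69 measured members, Scarna13, Snora73a, Snora7a, Snora17, Scarna3a, Snora73b, Snora16a, Snora74a and Snord13, where 3.33% of all genes and 6.09% of genes above the array median passed. This count was 4 without control animal 20, without TSC22D4 animal 26 or without TSC22D4+LCN13 animal 29, and 5 without LCN13 animal 21, TSC22D4 animal 25 or TSC22D4+LCN13 animal 32.

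The host genes were examined next, because a snoRNA is made from the same primary transcript as the exons of its host. By RefSeq spans, 62 of the 69 measured members lay inside exactly 1 other gene, 47 inside coding and 15 inside noncoding genes, 4 lay inside several and 3 inside none. Ribosomal protein genes held 22 of them, in 17 genes. The table used gives no strand, so a host is any gene whose span contains the member. For 49 members the host, 40 genes in all, had its own probe set. Of these hosts 6 were lower and 1 was higher with TSC22D4 virus on average, and the median host difference was -0.07. In these directions 2.89% and 1.52% of all genes passed, and 5.2% and 2.47% of genes above the array median. Across these 49 members the difference of the snoRNA and that of its host had a Pearson r of -0.096 and a Spearman rho of -0.043. This is a description across genes in which several members share a host. The hosts Tpt1 (4.99), Rps2 (5.01), Rpsa (5.13), Rpl3 (5.17), Snhg12 (5.32) and Rps3a1 (5.35) had means below the array median. A change in them may not be visible, which limits these correlations.

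Snhg3, the host of Snora73a and Snora73b, was at 6.35, 6.33 and 6.42 in TSC22D4 muscle, 6.19, 6.25 and 6.07 in TSC22D4+LCN13 muscle, 6.46, 6.497 and 6.51 in LCN13 muscle and 6.47, 6.45 and 6.53 in control muscle. It was lower on all 6 arrays with TSC22D4 virus, with a difference of -0.22 (SE 0.03, limma adjusted p = 0.00892), smaller than the -0.86 and -1.26 of its snoRNAs. Ncl, which codes for nucleolin, a major protein of the nucleolus, was lower by a similar amount, -0.20 (SE 0.03, limma adjusted p = 0.00686). Its 2 measured snoRNAs, Snora75 and Snord82, had differences of -0.69 and -0.02, and neither passed (adjusted p = 0.315 and 0.941). Eif4a2, Rpl4, Rpl23 and Snx5 were the other lower hosts, and their snoRNAs Snord2, Snord16a, Snora21 and Snord17 did not pass. Without 1 array the calls of Rpl23 and Snx5 were lost in 8 and 10 of 12 fits and those of Eif4a2 and Rpl4 in none. With trend and robust options Rpl4 and Snx5 lost theirs, and Rpl4 also with genes above the array median alone.

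Members of 1 host did not always move together. Snhg12 holds Snora16a, Snora44 and Snord99, with average differences of -1.85, -1.0 and 0.47, and its own difference was 0.09 (limma adjusted p = 0.465). Of these only Snora16a passed, and Snora44 had an adjusted p of 0.0714. Snhg7 holds Snora17 at -1.35 and Snora43 at -0.03, with a host difference of 0.04 (limma adjusted p = 0.539). The Snhg12 probe set had a mean of 5.32 and the Snhg7 probe set one of 5.53, the first below and the second just above the array median, so that a change in these hosts may not be visible. Rpl27a, which codes for a ribosomal protein, was the 1 higher host, at 0.35 (SE 0.07, limma adjusted p = 0.0313), and its snoRNA Snora3 had a difference of -0.69 and did not pass (adjusted p = 0.114). The probe set of Tpt1, host of Snora31, was at 4.99, below the array median.

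**Figure D4:**
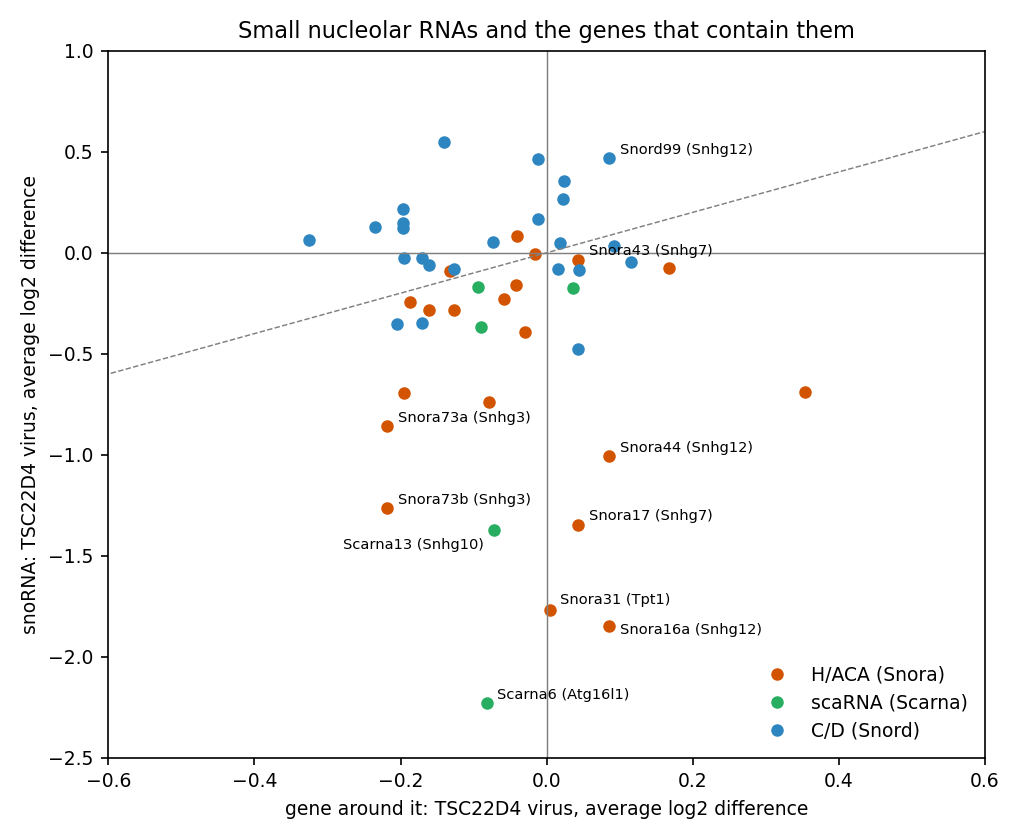
Average log2 difference with TSC22D4 virus of 49 measured members (y axis) and of the gene that contains each (x axis), coloured by class; the dashed line marks equal values. The hosts lie between -0.33 and 0.35 while the snoRNAs reach -2.23, and members of Snhg12 and of Snhg7 lie at different heights above the same host value.

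Some of the members that fell most were among the longest as listed in RefSeq, and others were not. By RefSeq length the measured H/ACA genes had a median of 124 bases (98 to 205), C/D genes one of 74 (45 to 221) and scaRNA genes one of 121 (42 to 275). Scarna13, with 275 bases, Scarna6, with 248, and Snora73a and Snora73b, with 205 each, were 4 of the 5 longest by these lengths. Scarna9 and Scarna2 are listed with 42 and 61 bases and had differences of -0.17 and -0.03. Whether such short records hold the whole RNA was not checked, and the order by length and the correlations below rest on them. Length and the average difference with TSC22D4 virus had a Spearman rho of -0.605 over the 69 members, -0.461 within the 39 C/D genes and -0.306 within the 24 H/ACA genes. Of the 11 C/D genes with at least 90 bases 10 were below 0, with a median of -0.08, and of the 28 shorter ones 10 were below 0, with a median of 0.06, a limit chosen after the values were seen. Snord17, the longest C/D gene with 221 bases, had a difference of -0.06. The RNA had been extracted with an RNeasy kit, and such silica columns are known to retain short RNA poorly; the part of length or of recovery in these differences was not tested.

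**Figure D5:**
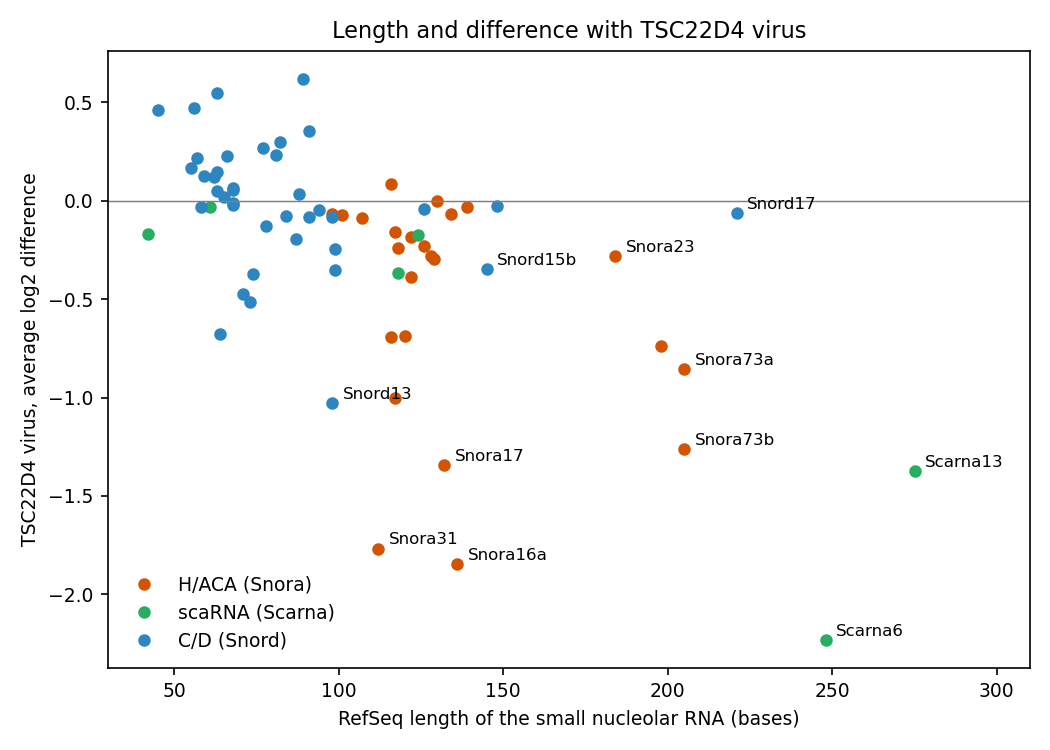
RefSeq length of each measured member in bases (x axis) and its average log2 difference with TSC22D4 virus (y axis), coloured by class. The 8 members below -1 have 98 to 275 bases, and the 7 members with the highest differences are C/D genes of 45 to 91 bases.

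Other small RNA genes were set beside the members. Among 11 such genes 2 were lower and 1 was higher with TSC22D4 virus on average, where 2.89% and 1.52% of all genes passed in these directions. Rpph1, the RNA of ribonuclease P, stood at 8.53, 8.70 and 8.92 in TSC22D4 muscle, 9.40, 9.43 and 9.16 in TSC22D4+LCN13 muscle, 9.68, 9.64 and 9.97 in LCN13 muscle and 9.36, 9.83 and 9.15 in control muscle. Its difference was -0.58 (SE 0.12, limma adjusted p = 0.0319), with overlap between the group with both viruses and control. The 5S ribosomal RNA gene n-R5s136 was lower, at -0.60 (SE 0.12, limma adjusted p = 0.0249). Its groups overlapped too, with control animal 18 at 10.09 and TSC22D4+LCN13 animal 30 at 10.19. Terc, the telomerase RNA, which carries an H/ACA domain and binds the same core proteins, was higher, at 0.33 (SE 0.07, limma adjusted p = 0.0352). It stood at 6.95, 7.13 and 7.12 in TSC22D4+LCN13 muscle and at 6.55, 6.26 and 6.39 in LCN13 muscle, whereas in TSC22D4 muscle, at 6.37, 6.72 and 6.43, it overlapped with control muscle at 6.58, 6.43 and 6.57. These calls were lost in 7, 5 and 9 of the 12 fits without 1 array for Rpph1, n-R5s136 and Terc. Rmrp (-0.25) and Rn7sk (-0.04), the RNA of the 7SK particle, did not pass. Of 109 microRNA genes above the array median 15 were lower and none higher, with a median of -0.07, where 5.2% of all genes above the array median passed as lower and 2.47% as higher.

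The proteins that carry and assemble snoRNAs changed in few cases. In the average with TSC22D4 virus 2.89% of all genes passed as lower and 1.52% as higher. Among genes above the array median these shares were 5.2% and 2.47%. None of the 4 core H/ACA proteins passed in the average with TSC22D4 virus, among them Dkc1, the pseudouridine synthase dyskerin, at 0.06, and Nop10 at 0.18 (limma adjusted p = 0.0768). None of the 3 core C/D proteins measured and neither of the H/ACA assembly factors Naf1 and Shq1 passed. The methyltransferase Fbl had a difference of 0.26 (limma adjusted p = 0.155). Of 7 C/D assembly factors 1 was higher, the ATPase Ruvbl1, at 0.51 (SE 0.11, limma adjusted p = 0.0336, lost in 8 of 12 fits without 1 array), and of 6 Cajal body and nucleolar factors Ncl was lower, as given above. Of 19 noncoding hosts named Gas5 or Snhg, Snhg3 and Snhg16 passed as lower. Snhg16 had a difference of -0.15 (limma adjusted p = 0.047), and its call was lost in 9 of 12 fits without 1 array, with genes above the array median alone, with trend and robust options and with array weights. Outside that list the noncoding gene 1110038B12Rik was lower, at -0.25 (limma adjusted p = 0.00608), and the member it contains, Snord52, was below the array median.

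Markers of other cells moved with TSC22D4 virus as well. In the average with TSC22D4 virus 1.52% of all genes and 2.47% of genes above the array median passed as higher. All 3 red cell markers on the arrays, Alas2, Hbb-b1 and Slc4a1, passed as higher, with a median of 1.22. Of these 3 markers 2 had a mean above the array median over the 12 arrays. Of these 2, Hbb-b1 was above it through the groups with TSC22D4 virus. Its means were 6.43 in TSC22D4 and 7.19 in TSC22D4+LCN13 muscle, but 5.22 in LCN13 and 5.32 in control muscle, below the array median. The summed log2 level of the 3 red cell markers ran from 17.7 to 19.6 in TSC22D4 muscle, from 19.1 to 22.4 in TSC22D4+LCN13 muscle, from 16.2 to 16.6 in LCN13 muscle and from 16.04 to 17.8 in control muscle. The call of Hbb-b1 held in all 12 fits without 1 array, and those of Alas2 and Slc4a1 were lost in 6 and 8 of them. Of 4 macrophage markers Adgre1 and Mrc1 were higher (0.35 and 0.44), calls lost in 10 and 11 of the 12 fits, and the summed level of the 4 ran from 28.3 to 28.9, 29.3 to 32.0, 27.5 to 29.3 and 27.3 to 28.1 in the same order of groups. The 6 hepatocyte markers were all below 0 with a median of -0.36, and none passed. The array of TSC22D4+LCN13 animal 30, the nearest to control by H/ACA score, had the highest mean deviation of the 12 for adipocyte (0.92), macrophage (0.82) and Schwann cell (0.61) markers. The Schwann cell list held 2 genes. For red cell markers animal 30 was the lowest of its group, at 0.34 against 1.42 and 0.64 in animals 29 and 32. The 6 tendon markers were lowest on the arrays of control animals 20 and 18, at mean deviations of -1.06 and -0.95, against -0.37 to 0.48 on the other 10, and none passed in the average. The part of these cells in the snoRNA differences was not tested.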

How the data were processed

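The deposited log2 levels came from RMA, according to the submitters' processing notes, which subtracts background, gives all arrays the same distribution and combines the probes of a set. RMA version, genome build and probe set definition have no statement in the sources used here. Biotinylated cDNA had been prepared from total RNA, per the labels' protocols. Values of 25206 probe sets ran from 4.78 to 14.09, and 23185 of these had 1 gene symbol in the array annotation. Equal distributions hide a shift shared by most genes. No batch or date is given, and a batch that followed the groups could not be told apart from them. The number of arrays limits the precision.

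All genes were fitted with limma 3.58.1 in R 4.3.3 (lmFit and eBayes, 4 group means, 8 residual and 1.69 prior degrees of freedom), with two-sided tests and Benjamini-Hochberg adjustment over 23185 genes within each comparison, passing at an adjusted p below 0.05. There were 6 comparisons and a test of any difference among the groups. A further 2, the averages over both backgrounds, were added after the data were seen. Differences are of mean log2 level with moderated SE. The p-values set a difference against the spread within the 4 groups, between animals chosen as representative. Named members were those that passed, those with the smallest p where few passed, those with the widest range and those nearest the array median. Members, gene lists and limits were chosen with earlier results of these data known. RefSeq names, lengths, spans and start windows are of GRCm38.p6, and all 107 members matched by gene identifier. On simulated data with 23185 genes the steps were checked: for the average with TSC22D4 virus 94% of genes changed by 0.5 were recovered and 100% of those changed by 1, while at 0.5 the share was 92.5% for TSC22D4 against control, 73.1% for TSC22D4+LCN13 against LCN13, 71.6% for TSC22D4+LCN13 against TSC22D4 and 73.1% for the interaction. No share was worked out for the measured members, whose median within-group SD was 0.21, against 0.0643 for all genes. These shares therefore do not tell how many changed members were missed. In TSC22D4 against control muscle Snora16a, with a difference of -1.70, did not pass (limma adjusted p = 0.171). Alternatives were all probe sets, genes above the array median, trend and robust options, centred arrays, array weights, the compared groups alone and each array left out.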

Additional observations from a re-analysis of the deposited data

How the results depend on the processing

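Calls among the 69 measured members depended on the fit. With genes above the array median alone the count was 4 in place of 1 for TSC22D4 against control, 8 in place of 2 for TSC22D4+LCN13 against control and 17 in place of 10 for TSC22D4+LCN13 against LCN13; fewer genes enter the adjustment there. Trend and robust options gave 2 in place of 1 and 16 in place of 10 for the first and the last of these. Array weights gave 1 in place of 2 and 6 in place of 10 for TSC22D4+LCN13 against control and against LCN13. These counts hide changes of members. Both calls against control, Snord65 and Scarna3a, were lost with array weights, so the 1 was another member. Against LCN13 the calls of Snord65, Snord13, Snora16a, Scarna13 and Snora74a were lost, and in the average with TSC22D4 virus that of Snord42a. In all, array weights lost 8 of the 28 calls of single members. The arrays of the compared groups alone, 6 in place of 12, gave 0, 1 and 0 for the 3 comparisons, and 12 of their 13 calls were lost.

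Without 1 array the counts ran from 0 to 2 for TSC22D4 against control, 0 to 2 for LCN13 against control, 0 to 5 for TSC22D4+LCN13 against control, 3 to 14 for TSC22D4+LCN13 against LCN13, 9 to 18 for the average with TSC22D4 virus and 4 to 11 for any difference. They stayed at 0 for TSC22D4+LCN13 against TSC22D4, the interaction and the average with LCN13 virus. No call changed sign in any setting run. Of the 15 calls of the average with TSC22D4 virus, 9 were kept in all 12 fits: Snora73a, Scarna13, Snora17, Snora7a, Snora16a, Snora73b, Scarna3a, Snora74a and Snord87. The largest adjusted p of the other 6 was 0.0642 for Snord65, 0.0664 for Snord13, 0.0701 for Snora31, 0.0813 for Snora28, 0.0932 for Snord23 and 0.0925 for Snord42a. Among other genes Rpph1 lost its call in 7 of 12 fits, n-R5s136 in 5, Terc, Snhg16 and Mrc1 in 9, 9 and 11, Ruvbl1 in 8, Rpl27a in 7, Rpl23 and Slc4a1 in 8 each, Snx5 and Adgre1 in 10 each and Alas2 in 6, while Snhg3, Ncl, Eif4a2, Rpl4 and Hbb-b1 lost theirs in none. All probe sets and centred arrays changed none of the 28 calls of single members. Of the 69 members, 58 were above the array median on all 12 arrays. No paired analysis was possible because the animal numbers differ between the groups.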
